A study of Macaca mulatta with 12 samples.

Results

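The DEAD-box (DDX) and DEAH-box (DHX) RNA helicases were followed in macaque liver through a first period of daily ethanol drinking. A gene was taken as a member when its Ensembl identifier carries a symbol of DDX or DHX followed by a digit. The cytosolic RNA sensors DDX58 and DHX58 were left out. The rule used names only and no measured value. It gave 49 of the 23993 genes in the table, 35 DDX and 14 DHX genes, and all 49 were among the 18373 genes that passed the filter on low counts.

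RNA helicases use ATP to open RNA duplexes or to strip proteins from RNA. DEAD-box enzymes bind and bend short duplexes locally, while DEAH-box enzymes pull along a strand and are often switched on by partners with a G-patch motif. In a liver cell they serve splicing, ribosome assembly, mRNA export, translation and mRNA decay, and several of them also bind transcription factors.

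The animals were 6 male rhesus macaques of about 4.6 years, and each gave a liver biopsy before (baseline) and at the end of an induction of 90 days (post-induction). Every animal drank the same ethanol doses, 0.5, then 1, then 1.5 g per kg of body weight a day, for 30 days each. Afterwards alcohol was freely available for 12 months, and the animals were classed by what they then drank, 1.5 g/kg/day for the 3 light drinkers (LD) and 4.0 g/kg/day for the 3 very heavy drinkers (VHD). The 4 groups, LD and VHD at baseline and LD and VHD post-induction, held 3 libraries each, 1 per animal. The class names therefore describe drinking that came after both biopsies. No animal went without ethanol, so ethanol, elapsed time and a repeated biopsy cannot be told apart. Genotypes beyond species and sex were not given.

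Libraries held 5970033 to 25060718 counts. Levels are given as CPM, counts relative to the library total after scaling for library composition. They are not corrected for transcript length, so levels of different genes cannot be compared as amounts of RNA molecules. The ratio of DDX5 to DDX17 and the shares of single genes in the summed level depend on length. They serve only to compare libraries. In all, 12 libraries were used, and 5 of them (VHD baseline 2, numbers 2 and 3 of LD and numbers 1 and 3 of VHD post-induction) lay on one side of the leading component of all genes, which held 31.4% of the variance. VHD post-induction 1 lay close to the other 7. VHD baseline 3 and VHD post-induction 2 stood apart on the next component, with 20.6%. Hepatocyte markers (7 of 8 names found) summed to 133195 to 251200 CPM per library, and none of the 7 was at 0 in all libraries. The sum was 133195 to 248858 CPM at baseline and 143751 to 251200 CPM post-induction, so the times overlapped. VHD baseline 3 held the highest sums of macrophage markers (254 CPM, 7 of 9 names found) and neutrophil markers (33.0 CPM, 5 of 7 names found) and the lowest of stellate and stromal markers (79.3 CPM, 7 of 7). What part this had in the values of that library was not tested. The biopsies are bulk tissue, so fewer cells of a type and less RNA per cell cannot be told apart.

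After induction, 1 helicase fell and none rose in edgeR. DDX5, a coactivator of transcription that also acts in splicing and microRNA processing, was the member that passed. This was the mean response, that is, post-induction minus baseline averaged over LD and VHD with equal weight. The background was 0.267% of all genes tested at the same threshold, an edgeR quasi-likelihood test with a Benjamini-Hochberg adjusted p under 0.05, with 0.25% lower and 0.0163% higher. DESeq2 called 3 members, DDX5 and DDX20 lower and DDX4 higher, among 284 genes called of 12627 with an adjusted p. The limma fits called 1 member each, among 54 to 60 genes called of 18373. With a term for the animal, edgeR called 0 members and 4 of 18373 genes. Most members lay on the same side. Of the 49, 38 had a log2 change below 0, against 42.6% of all genes, and their median was -0.29 against 0.07 for all genes. At an unadjusted p under 0.05 there were 10 lower members and 1 higher one, together 22.4% of the members against 7.91% of all genes. Genes of one library share its depth and its cells, so these shares describe the members and were not tested as a set.

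**Figure D1:**
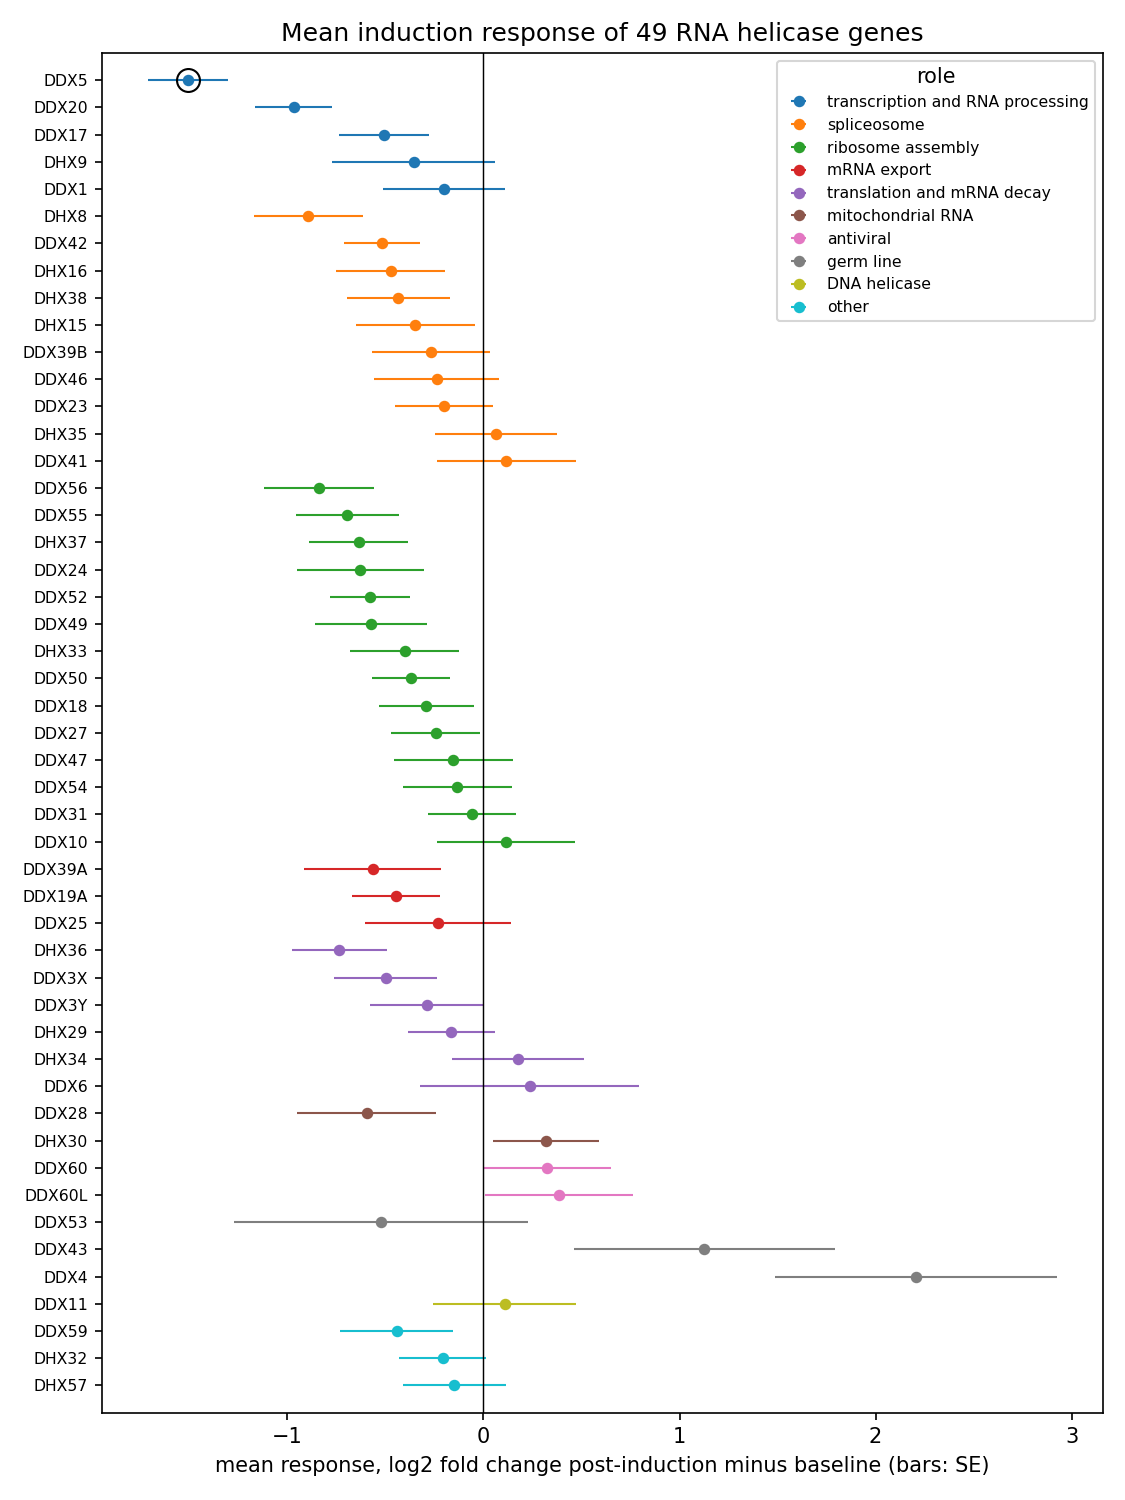
Mean response of the 49 helicase genes, as log2 fold change of post-induction over baseline (x axis, with the standard error as a bar), 1 row per gene, coloured and ordered by role. DDX5, circled, is the gene past the adjusted threshold at -1.51, and 38 of the 49 points lie below 0.

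DDX5 (ENSMMUG00000009463, chromosome 16, 58116830 to 58125985, minus strand, Mmul_8.0.1) was measured at 369, 412 and 368 CPM in the LD baseline libraries and at 412, 315 and 291 CPM in those of VHD. After induction the LD libraries held 151, 120 and 121 CPM and the VHD libraries 122, 105 and 141 CPM. Every post-induction value lay below every baseline value, by a wide gap. The mean response was a log2 change of -1.51 ± 0.21 (SE, n = 6 animals), or 2.84-fold lower (adjusted p = 0.0246, edgeR). That fit treated libraries of 1 animal as independent. DDX5 was lower in 6 of 6 animals. Within LD alone the change was -1.55 ± 0.29 (adjusted p = 0.482) and within VHD alone -1.47 ± 0.29 (adjusted p = 0.287), and neither passed in edgeR. The 2 classes differed in this response by 0.08 ± 0.40, with a standard error far above the difference itself, so a moderate difference between classes could not be seen in either direction.

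The adjusted p of DDX5 moved with the fit and crossed the threshold in some, while its fold hardly moved. With a term for the animal its adjusted p in edgeR was 0.0801, at the same log2 change of -1.51. With the animal as a random effect in limma it was 0.00721. Leaving out 1 library at a time kept the call in 6 of 12 fits. It was lost without VHD baseline 1 (adjusted p = 0.0505) or LD baseline 3 (0.0772). It was also lost when VHD post-induction 1 (0.0649) or 3 (0.0573) was left out, or LD post-induction 2 (0.0936) or 3 (0.0609), and without both libraries of VHD animal 3 (0.0598). Over all 25 alternatives the log2 change stayed between -1.64 and -1.43. The call held in 17 of the 25, with adjusted p from 7.3e-12 to 0.0936 over the different tests.

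At the level of transcripts no part of DDX5 passed on its own. Of its 4 transcripts, ENSMMUT00000070857 took 78.0% of the gene's counts and from 52.0% to 99.9% in single libraries. This transcript ran from 210 to 322 CPM at baseline and from 80.2 to 140 CPM afterwards, with no overlap. Its own log2 change was -1.33 ± 0.20 (adjusted p = 0.103, edgeR on 27008 transcripts). ENSMMUT00000071837 took 14.7% of the gene's counts and went from 0.0983 to 97.1 CPM in the baseline libraries. No transcript of any member, of 89 tested, passed, and neither did any of the 27008 transcripts tested over all genes. The lack of a call at this level is therefore not particular to DDX5 or to the helicases. Reads of an overlapping microRNA gene on the same strand, MIR5047, came to 94 counts in the 12 libraries, and those of a further overlapping gene without a symbol, ENSMMUG00000044760, to 136, against 42645 for DDX5.

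**Figure D2:**
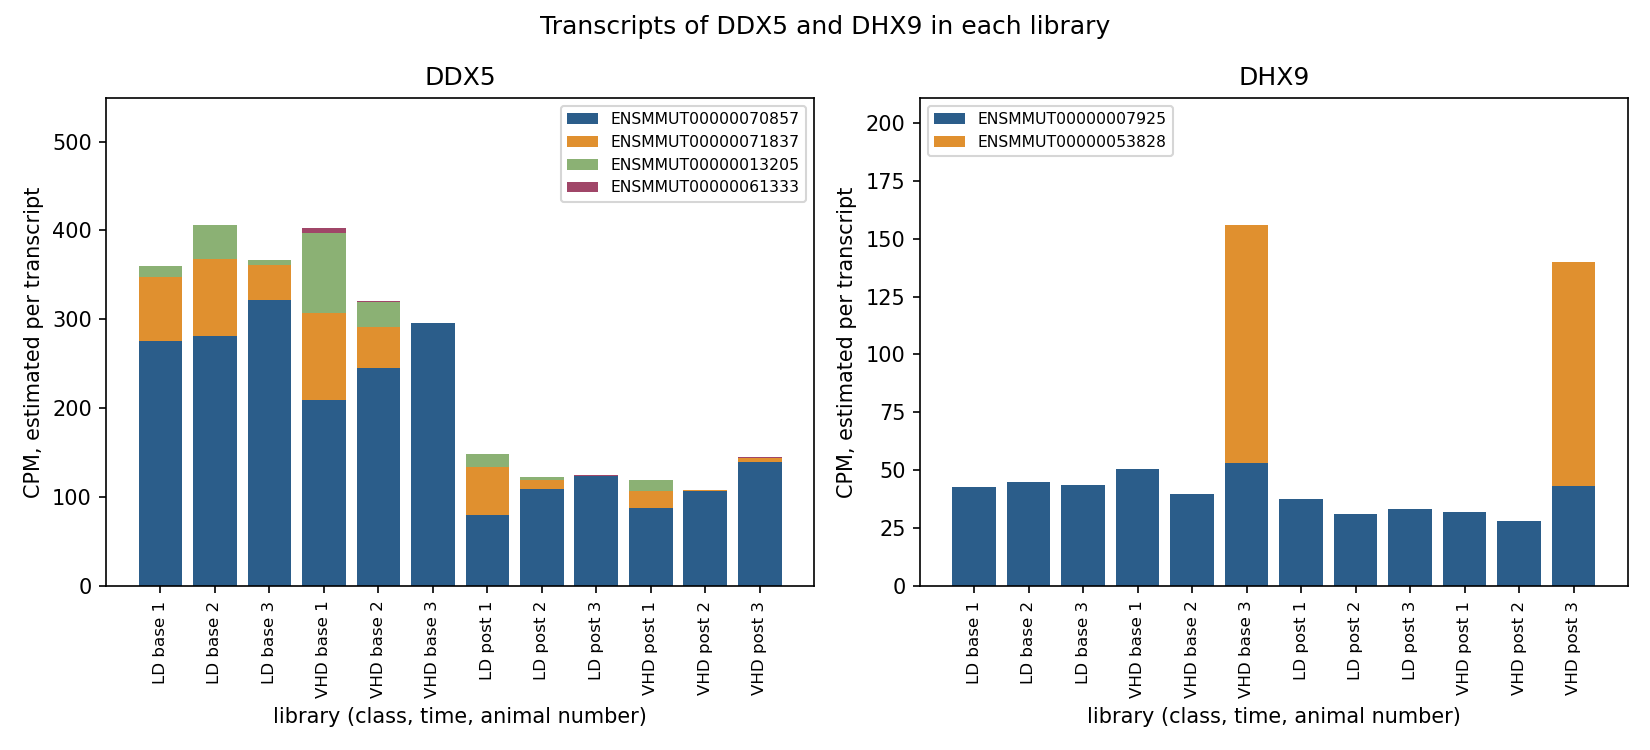
Stacked bars of the CPM estimated for each transcript of DDX5 (left, 4 transcripts) and DHX9 (right, 2 transcripts) in the 12 libraries, labelled by class, time and animal number. The DDX5 bars are shorter in all 6 post-induction libraries, and ENSMMUT00000053828 of DHX9 is seen in both libraries of VHD animal 3 and in no other library.

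DDX17 (ENSMMUG00000004304), the closest paralog of DDX5 and its partner in many of the same complexes, was lower in 6 of 6 animals but by much less. Its baseline values were 434, 406 and 377 CPM in LD and 389, 336 and 314 CPM in VHD. Post-induction values were 208, 300 and 354 CPM in LD and 298, 161 and 269 CPM in VHD. Each class had no overlap between times, but LD post-induction 3 exceeded 2 VHD baseline libraries. The mean response was -0.51 ± 0.23 (adjusted p = 0.613). The ratio of DDX5 to DDX17 within a library went from 0.849 to 1.06 at baseline and from 0.343 to 0.729 post-induction, again without overlap. Both genes share similar stretches, and reads could have been split between them in the authors' counting.

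DDX20 (ENSMMUG00000014489), also called gemin3, belongs to the SMN complex that assembles spliceosomal small nuclear ribonucleoproteins. It stood at 18.5, 16.3 and 13.9 CPM in LD and 15.5, 16.4 and 15.1 CPM in VHD before induction. Afterwards it stood at 8.80, 9.12 and 6.71 CPM in LD and 9.24, 6.95 and 7.99 CPM in VHD. DDX20 and DDX5 were the 2 members whose 6 post-induction values all lay below their 6 baseline values, against 0.849% of all genes tested. No member lay wholly above, against 0.142%. The mean response of DDX20 was -0.97 ± 0.20, or 1.96-fold lower, with an adjusted p of 0.0693 in edgeR and 0.000156 in DESeq2. The difference between classes was 0.02 ± 0.39.

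DHX9, a nuclear helicase that links transcription to RNA export and resolves RNA-DNA hybrids, was lower in 6 of 6 animals, with 1 animal far above the others. The LD libraries held 44.0, 45.5 and 44.0 CPM at baseline and 38.2, 30.6 and 32.4 CPM afterwards. The VHD libraries held 51.6, 39.2 and 153 CPM at baseline and 32.8, 27.5 and 136 CPM afterwards, the last value of each set being animal 3. Both libraries of this animal exceeded the other 10 (27.5 to 51.6 CPM) by over 2-fold. The excess sat on 1 of the 2 DHX9 transcripts. ENSMMUT00000053828 (chromosome 1, 184491986 to 184528014) was at 103 and 96.4 CPM in this animal, 65.9% and 69.0% of the gene, and under 0.5 counts in each of the other 10 libraries.

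The other DHX9 transcript, ENSMMUT00000007925, ranged from 28.1 to 53.2 CPM over all 12 libraries, animal 3 included. Its mean response was -0.42 ± 0.18 (unadjusted p = 0.0364, adjusted p = 0.773). A rule shaped on the DHX9 transcript of animal 3 asked for 10 CPM or more in both libraries of 1 animal and under 0.5 counts in all others. It was met 3 times among 40611 transcripts for VHD animal 3, 1 of them being that DHX9 transcript, and not for any other animal. Genes at least 2-fold above the other 10 libraries in both libraries of that animal came to 82, DHX9 included, or 0.446% of those tested. For other animals the count was 0 to 7. The gap between VHD and LD in DHX9 was 0.87 ± 0.59 at baseline and 0.96 ± 0.59 post-induction. Without animal 3 it was 0.01 and -0.17.

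DDX1, a helicase of tRNA ligation and mRNA transport, varied with library more than with time. It ranged from 23.2 to 76.1 CPM at baseline and from 26.9 to 72.5 CPM afterwards. The lowest values of the 2 time points were in VHD baseline 3 and VHD post-induction 2, the libraries that stood apart.

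**Figure D3:**
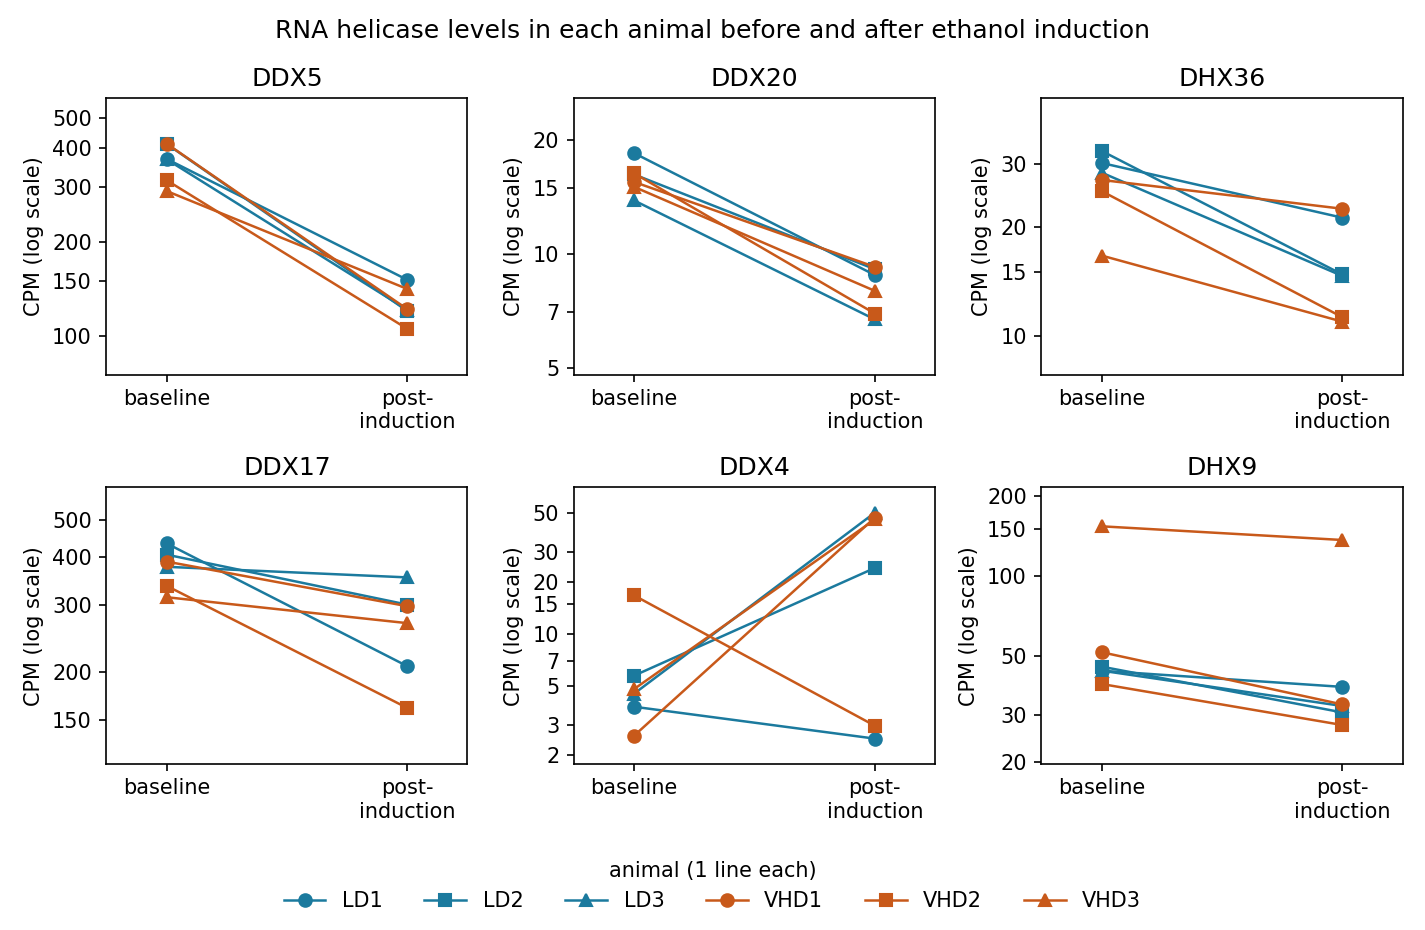
Level of 6 helicase genes in CPM (y axis, log scale, own range in each panel) at baseline and post-induction, 1 line per animal (blue LD, orange VHD, marker by animal number). The lines of DDX5, DDX20, DHX36, DDX17 and DHX9 all slope down, those of DDX4 cross, and VHD animal 3 lies above the rest in DHX9 at 153 and 136 CPM.

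Among the 10 spliceosome helicases, 8 had a log2 change below 0 (median -0.31) and none passed. For this and the other roles and lists below, the shares to set beside are 38 of all 49 members and 42.6% of all genes. The spliceosome share is close to that of the members as a whole. These enzymes drive the rearrangements by which the spliceosome is built, cuts the intron out and is taken apart. DHX8, which releases the spliced mRNA, was at 6.23, 5.12 and 4.89 CPM in LD and 4.76, 7.94 and 3.30 CPM in VHD before induction. It was at 3.44, 2.46 and 4.22 CPM in LD and 2.48, 1.97 and 2.93 CPM in VHD afterwards. The times did not overlap within a class, and the mean response was -0.89 ± 0.28 (adjusted p = 0.321). Of all genes, 6.16% were lower without overlap in LD and 3.88% in VHD. DHX8 overlaps ETV4 on the other strand, with 193 counts against 715 for DHX8, and strand use in the counting was not given. DHX15, which takes apart the spent spliceosome, went from 15.6 to 56.6 CPM at baseline and 15.1 to 36.4 CPM afterwards (-0.35 ± 0.30). DDX39B, an early splicing and export factor, showed -0.27 ± 0.30. It overlaps a small nucleolar RNA gene, SNORD83, on the same strand, with 3564 counts against 5165 for DDX39B, so its value is uncertain.

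DHX16, a helicase that primes the spliceosome for its catalytic step, was higher in the 7 libraries on one side of the leading component than in the 5 on the other. It stood at 9.998 to 17.6 CPM in the 7 and 6.77 to 8.53 CPM in the 5. DDX19A, DDX39A and DDX41 were also wholly lower in those 5 libraries, which makes 4 of 49 members against 3.4% of all genes. In the opposite direction 1 member, DDX4, was wholly higher, against 3.76%. Since 4 of the 5 libraries were post-induction, the time point and this division overlap. With a term for the division in the fit, the mean response of DHX16 went from -0.47 ± 0.28 to -0.08 ± 0.22, that of DDX19A from -0.45 ± 0.23 to -0.18 ± 0.19 and that of DDX39A from -0.57 ± 0.35 to -0.16 ± 0.21. That of DDX41, a splicing helicase mutated in blood cancers, went from 0.12 ± 0.35 to 0.60 ± 0.20 (adjusted p = 0.217). DDX41 overlaps FAM193B on the same strand, with 1380 counts against 4998 for DDX41. DDX19A, DDX39A and DDX41 fall outside the rule for named members and were picked after their values were seen. All 4 genes are shown here because they follow the division. An upward shift of their responses with its term was therefore fixed by that choice and is no separate evidence.

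The 14 members that act in ribosome assembly had a median of -0.39, and 13 of them were below 0 with none past the threshold. They remodel the precursor RNAs of the 2 ribosomal subunits in the nucleolus. DDX56, needed for the large subunit, was at 20.6, 24.4 and 22.6 CPM in LD and 23.6, 18.6 and 10.9 CPM in VHD at baseline. Post-induction it was at 17.5, 6.14 and 8.63 CPM in LD and 13.7, 10.5 and 10.5 CPM in VHD. It was lower in 6 of 6 animals (-0.84 ± 0.28, adjusted p = 0.378). VHD baseline 3 was the one baseline library inside the post-induction range.

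DHX37 and DDX52, which act on the small subunit, were each lower in 6 of 6 animals. DHX37 ranged from 7.04 to 12.9 CPM at baseline and from 4.14 to 8.05 CPM afterwards (-0.64 ± 0.25, adjusted p = 0.522). DDX52 ranged from 10.7 to 17.3 CPM and then from 8.83 to 13.6 CPM (-0.58 ± 0.20, adjusted p = 0.424). DDX52 overlaps NPEPPS on the same strand, with 1578 counts against 2268 for DDX52, so its value is uncertain. DDX55, a large-subunit factor, showed -0.69 ± 0.26 (adjusted p = 0.484) and was lower in 5 of 6 animals. It overlaps a small nucleolar RNA gene, SNORA9B, with 696 counts against 931 for DDX55, so its value is uncertain. DDX47 (-0.15 ± 0.30) and DDX54 (-0.13 ± 0.28), also ribosome assembly factors, spanned 8.89 to 24.99 CPM and 19.0 to 46.5 CPM at baseline and nearly the same range afterwards.

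DDX10, also a small-subunit factor, was the one member with an unadjusted p under 0.05 for the difference of the responses. It was at 6.58, 8.48 and 10.5 CPM in LD at baseline and 8.43, 25.9 and 13.6 CPM after induction, higher in all 3 animals. In VHD it was at 16.9, 16.0 and 6.92 CPM and then at 11.3, 3.83 and 9.88 CPM, lower in animals 1 and 2 and higher in animal 3. The VHD response minus the LD response was -1.57 ± 0.71 (unadjusted p = 0.0447, adjusted p = 1.00, edgeR). This did not hold after adjustment. The unadjusted p was also above 0.05 with a term for the animal (0.0675) and in the limma fits (0.0553 to 0.0667), and it stayed under 0.05 in 6 of 12 fits that left out 1 library.

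Of the 6 members of translation and mRNA decay, 4 were below 0 (median -0.23). DHX36 unwinds four-stranded guanine structures in mRNA. It was at 30.1, 32.5 and 28.3 CPM in LD and 27.0, 25.2 and 16.7 CPM in VHD at baseline. It was at 21.2, 14.8 and 14.7 CPM in LD and 22.5, 11.3 and 10.96 CPM in VHD afterwards. DHX36 was lower in 6 of 6 animals, with times overlapping within VHD (-0.74 ± 0.24, adjusted p = 0.370).

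DDX3X, which helps the ribosome scan structured leaders, ranged from 125 to 185 CPM at baseline and from 50.9 to 150 CPM afterwards (-0.50 ± 0.26, adjusted p = 0.698). Its Y-linked copy DDX3Y ranged from 22.6 to 40.3 CPM and then from 13.8 to 48.7 CPM (-0.29 ± 0.29). VHD post-induction 2 held the lowest value of both. These copies share long stretches, and how the authors' counting divided reads between them is not known. DDX6, an activator of mRNA decapping, had 168 counts in all 12 libraries together and never exceeded 1.94 CPM, so its response of 0.23 ± 0.56 carries little.

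The smaller groups were mixed. The 3 mRNA export members were all below 0 (median -0.45). Of the 2 mitochondrial members, DDX28, a factor of the mitochondrial ribosome, showed -0.60 ± 0.35, and DHX30 showed 0.32 ± 0.27. The 2 antiviral members were both above 0 (median 0.36), with DDX60 ranging from 1.52 to 3.62 CPM at baseline and 2.03 to 6.90 CPM afterwards. DDX59, of no assigned role, showed -0.44 ± 0.29. None of these passed.

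DDX4, also called vasa and known from germ cells, had the highest mean response at 2.21 ± 0.72 on the log2 scale (adjusted p = 0.359 in edgeR, 0.0339 in DESeq2). It was at 3.81, 5.76 and 4.53 CPM in LD and 2.59, 16.7 and 4.81 CPM in VHD at baseline. Afterwards it was at 2.49, 24.1 and 50.3 CPM in LD and 47.1, 2.96 and 46.0 CPM in VHD. It was higher in 4 of 6 animals and lower in LD animal 1 and VHD animal 2. The high values, 16.7 to 50.3 CPM, were those of the 5 libraries on one side of the leading component, while the other 7 held 2.49 to 5.76 CPM.

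With a term for that division in the fit, the response of DDX4 was -0.05 ± 0.39. Since DDX4 is wholly higher in those 5 libraries, a drop with this term was fixed beforehand and is no separate evidence. Its transcript ENSMMUT00000041671 took 78.4% of the counts. Other germ-line members were scarce. DDX43 did not exceed 1.34 CPM (1.13 ± 0.66) and DDX53 did not exceed 2.78 CPM (-0.52 ± 0.75).

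**Figure D4:**
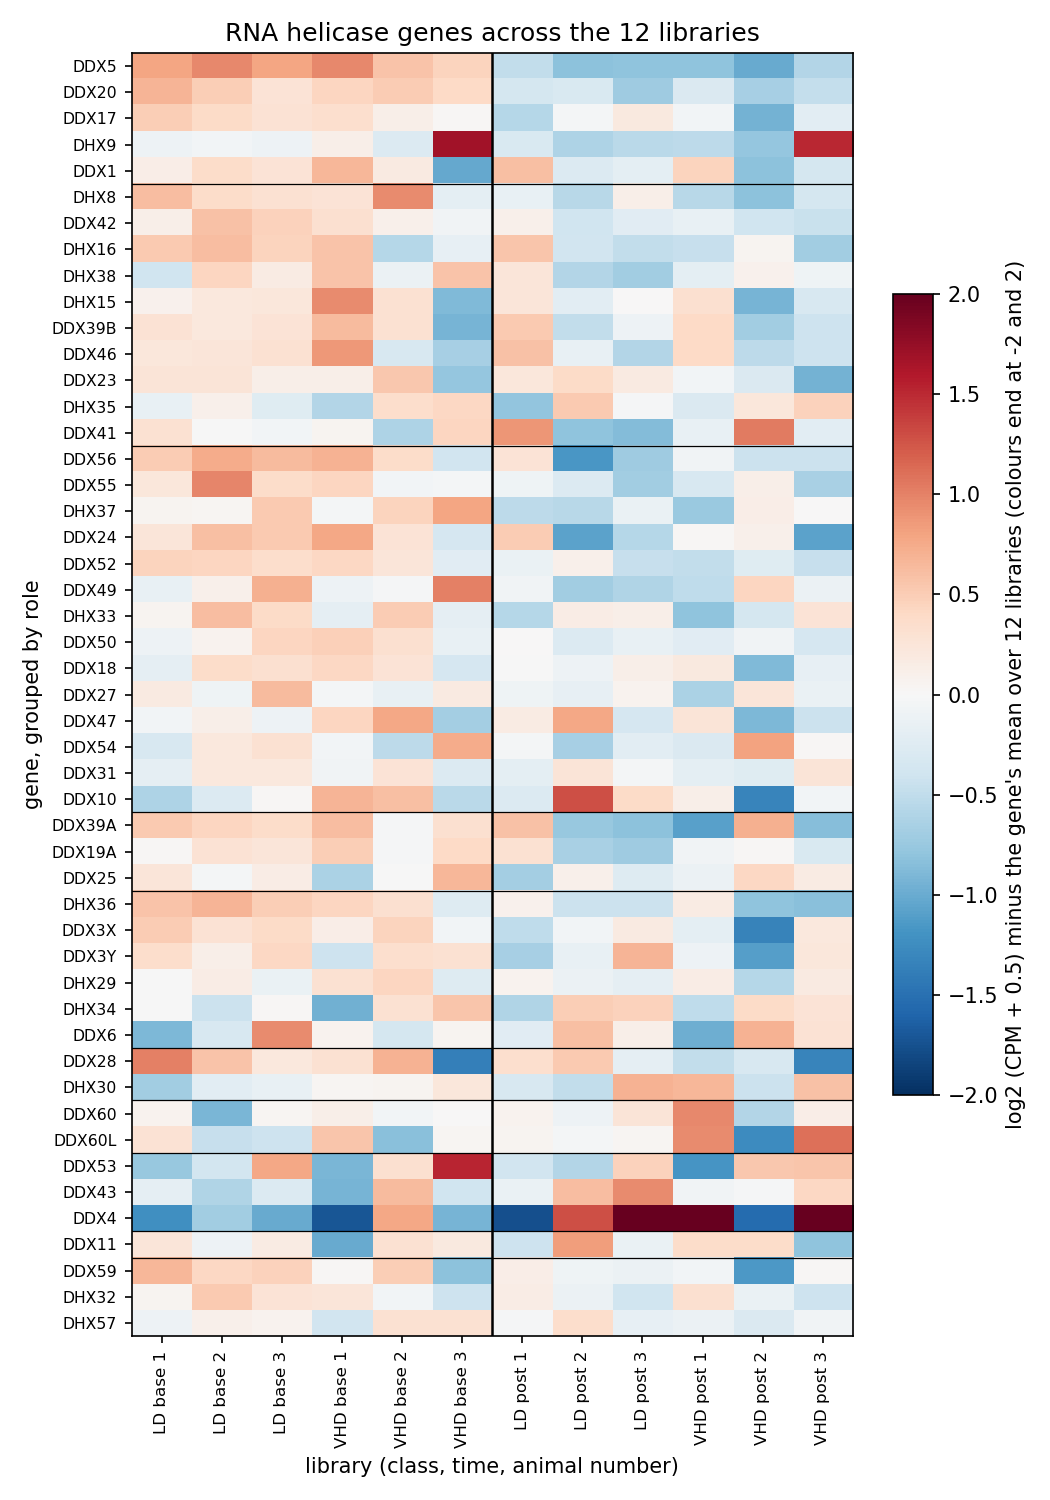
Heat map of 49 helicase genes (rows, grouped by role and parted by lines) in 12 libraries (columns, baseline left of the heavy line), coloured by log2 (CPM + 0.5) minus the gene's mean over the libraries, with colours ending at -2 and 2. DDX5 and DDX20 change colour at the heavy line, DDX4 follows 5 libraries, and DHX9 is red in both libraries of VHD animal 3.

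Over both classes, 10 members were lower post-induction in 6 of 6 animals (DDX5, DDX17, DDX20, DDX42, DDX52, DDX56, DHX8, DHX9, DHX36 and DHX37), against 3.73% of all genes. No member was higher in all 6, against 2.68%. The summed level of the members was 1477 to 1795 CPM at baseline and 885 to 1271 CPM afterwards, with no overlap. DDX5, DDX17 and DDX3X made up 49.4% to 57.3% of that sum at baseline and 35.9% to 49.4% afterwards. Without these 3, the sum went from 735 to 851 CPM at baseline and from 568 to 736 CPM afterwards, so that the times overlapped narrowly.

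Each class was also read alone. In LD, 0 members passed in edgeR (background 0%) and 6 had an unadjusted p under 0.05, 5 of them lower, against 5.7% of all genes. Of the members, 36 were below 0, against 43.6% of all genes, and their median was -0.38 (-0.22 without LD baseline 3) against 0.08. DESeq2 called 1 member, DDX5, among 54 genes called of 15826 with an adjusted p, and limma none. In LD, 13 members lay without overlap below baseline, against 6.16% of all genes, and 1 above (DDX43, 5.48%). In VHD, 0 members passed in edgeR (background 0%), 3 had an unadjusted p under 0.05, all lower (3.44%). Here 37 members were below 0, against 47.6% of all genes, and the median was -0.37 against 0.03. DESeq2 again called DDX5, among 64 genes called of 11915 with an adjusted p, and limma none. In VHD, 6 members lay below baseline without overlap (3.88%) and 0 above (2.8%). The 6 were DDX5, DDX17, DDX20, DDX42, DDX52 and DHX8, and all of them were among the 13 of LD. DDX42 stands outside the rule for named members.

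No member's response differed between the classes after adjustment. For the difference of the responses, 0 members passed in edgeR (background 0%), 24 were below 0 (53.8% of all genes) with a median of 0.01 against -0.05, and DDX10 was the one at an unadjusted p under 0.05 (1.3% of all genes). DESeq2 and limma also called 0. The members' medians in LD and VHD rest on different animals. Their standard errors for single genes, such as 0.40 for DDX5, leave room for moderate differences.

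Future light and very heavy drinkers were compared at each time, which asks whether the helicases differed before the classes drank differently. At baseline, 0 members passed in edgeR (background 0.00544%), 0 had an unadjusted p under 0.05 (1.86%), and 28 were below 0 (43.4%). The median of VHD minus LD was -0.07 against 0.07 for all genes. DESeq2 and limma called 0. DHX36 lay lower in all 3 VHD libraries (16.7 to 27.0 CPM) than in all 3 LD libraries (28.3 to 32.5 CPM), with a log2 difference of -0.40 ± 0.34. It was the 1 member below without overlap (3.07% of all genes). DHX30, which serves mitochondrial ribosome assembly, was the 1 above (4.13%), at 27.2 to 31.3 CPM in VHD and 16.3 to 23.9 CPM in LD. It was picked after its values were seen, and it overlaps MAP4 on the other strand.

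After induction, 0 members passed between the classes in edgeR (background 0%), 0 had an unadjusted p under 0.05 (2.44%), and 29 were below 0 (50.4%). The median was -0.08 against -0.01 for all genes. DESeq2 and limma called 0. DDX28 was at 5.93, 6.73 and 3.11 CPM in VHD and 10.9, 12.5 and 7.48 CPM in LD, a log2 difference of -0.97 ± 0.50. DDX23, a helicase of the tri-snRNP of the spliceosome, was at 22.6, 19.3 and 12.0 CPM in VHD and 27.6, 30.8 and 26.8 CPM in LD (-0.66 ± 0.35). Both had an adjusted p of 0.999. These 2 members lay below LD without overlap (2.16% of all genes) and 0 above (2.68%).

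Relatives and partners of the members were counted from fixed lists. Of 12 other superfamily 2 RNA helicases tested, 5 were below 0 (median 0.11) and none passed in the mean response. EIF4A1, the translation initiation helicase, had the smallest p of these at -0.91 ± 0.28 (adjusted p = 0.312). It went from 163 to 296 CPM at baseline and from 85.3 to 223 CPM afterwards, where VHD post-induction 2 held the 223 and the other 5 did not exceed 131. TDRD9 of the same list went the other way, at 0.92 ± 0.40 (adjusted p = 0.586, edgeR). At an unadjusted p under 0.05 the list held 1 lower and 1 higher gene. Of 8 superfamily 1 RNA helicases, 6 were below 0 (median -0.05) and none passed.

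Of 21 G-patch proteins, partners of DEAH helicases, 13 were below 0 (median -0.13). RBM17, a splicing factor, had the smallest p at -0.51 ± 0.21 (adjusted p = 0.571). Of 22 partners of DEAD-box proteins, 17 were below 0 (median -0.15), and PDCD4, an inhibitor of EIF4A1, showed 0.43 ± 0.20 (adjusted p = 0.646). None of either list passed.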

How the data were processed

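RNA was measured in 12 liver libraries. The deposited raw table holds expected counts per Ensembl transcript, made by the authors, and the deposited normalized table holds signal values, used in an alternative only. The build was Mmul_8.0.1 and the tools were BWA, Bowtie and Partek, per the submitters' processing notes. Not given in the sources used here were versions, annotation, strand use and the aligner behind the table. Of the raw values, 40.1% were whole. A start coordinate may differ by 1 base. Small RNA tables were not used.

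Transcripts were summed per gene and rounded. edgeR 4.0.16 (R 4.3.3; TMM factors, filterByExpr, robust quasi-likelihood, 4 group means over 12 libraries) was run on 18373 genes, with Benjamini-Hochberg adjustment over all of them. A standard error is the log2 change divided by the square root of its F. DESeq2 1.42.0 and limma 3.58.1 served as alternatives. Only the edgeR fit was tested on simulated data, for the mean response. The simulated data had the same spread for every gene, no animal effect and no division into 5 and 7 libraries. The simulation therefore cannot show how the fit behaves under those. Libraries held 5970033 to 25060718 counts.

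The members and lists were chosen with earlier results of these data known. Named members are those past the threshold, the 5 with the smallest p in each of 6 comparisons, a panel of well-known helicases, and the 5 highest and 3 lowest by mean CPM, an order used to choose names only. Roles were assigned from general knowledge. DDX51 and DHX40 had no matching identifier in the table, and DDX21 was not matched by identifier. Of the 49 members, 16 overlap another gene, 11 of them on the other strand. DDX3X and DDX3Y, DDX39A and DDX39B, DDX60 and DDX60L, and DDX5 and DDX17 are similar pairs whose reads may be split. Libraries of 1 animal were paired by the numbers in the sample titles. This pairing served the counts of animals and the alternatives with the animal as a term or random effect. The main edgeR fit had no animal term and treated libraries of 1 animal as independent. Deviations from group means correlated within animals from -0.354 (VHD2) to 0.406 (VHD1).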

Additional observations from a re-analysis of the deposited data

Results flagged for a closer look

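In each time point the 6 libraries of both classes were searched for a highest or lowest value far from the rest. With 27 named members and 2 time points, 11 of 54 sets held such a library. Chance alone sets off about 1 in 20, and genes of one library are not independent. At baseline, VHD baseline 3 was far below the others in 6 members, with DDX1 at 23.2 CPM, DDX23 at 13.6, DDX28 at 3.00, DDX39B at 15.03, DDX52 at 10.7 and DDX56 at 10.9. The same library was far above the others in DHX9 at 153 CPM, and VHD post-induction 3, of the same animal, in DHX9 at 136 CPM. Single low values were those of DDX3Y in VHD baseline 1 (22.6 CPM), DDX60 in LD baseline 2 (1.52 CPM) and DDX59 in VHD post-induction 2 (3.44 CPM).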

How the results depend on the processing

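The named results were 52, and 1320 values under alternatives were computed for them, of which 1287 kept their direction and their side of the threshold. The members' median for the mean response stayed between -0.43 and -0.22. Leaving out 1 library moved it from -0.48 to -0.22 in LD (the latter without LD baseline 3) and from -0.46 to -0.28 in VHD. Medians close to 0 changed sign, from -0.14 to 0.0056 for VHD minus LD post-induction and from -0.034 to 0.070 for the difference of responses. For the mean response the count of members called was 3 with DESeq2, 0 with the replicate block (a term for each animal in the responses and for the number in the titles between classes, under which no other call changed) and 0 without animal VHD3, a setting chosen after seeing the data. It went from 0 to 1 over the fits that left out 1 library. DESeq2 called 1 member in LD and 1 in VHD. The cause of these changes was not tested. Fits of only the groups compared are the same as the full fit for the mean response and the difference, and were not run for them.

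Direction turned in 9 results on single genes, none of them called in edgeR. Leaving out 1 library at a time gave mean responses from -0.16 to 0.29 for DDX10, from -0.90 to 0.086 for DDX53, from -0.33 to 0.042 for DDX54, from -0.035 to 0.87 for DDX6 and from -0.97 to 0.014 for DHX9. It gave a DDX43 difference of responses from -1.93 to 0.088, and a DHX9 gap of VHD over LD from -0.020 to 1.19 at baseline and from -0.16 to 1.32 post-induction. Without animal VHD3 the mean responses were -0.15 for DDX10 and 0.11 for DDX54, and the post-induction gap in DHX9 was -0.17. With the term that parts 5 from 7 libraries, the responses were -0.52 for DDX10, 0.24 for DDX54 and -0.054 for DDX4. Without VHD baseline 3 and VHD post-induction 2, DHX9 showed 0.25. The cause was not tested.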
